A study of Homo sapiens with 2 samples.

Results

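A set of 6 mRNAs of the human mitochondrial genome was followed in a ribosome profiling series of HEK293 cells, a standard line derived from human embryonic kidney. They encode subunits of respiratory complexes III and IV and of ATP synthase, also called complex V: MT-CYB for complex III, MT-CO1, MT-CO2 and MT-CO3 for complex IV, and MT-ATP6 and MT-ATP8 for complex V. These 6 genes were chosen by Ensembl ID, out of 57820 IDs in the count table, and all 6 stood among its last 37 rows, which hold the mitochondrial chromosome. Both libraries, replicate 1 from batch 1 and replicate 2 from batch 2, came from cells kept in DMSO vehicle for 12 h under basal conditions, without heat shock. Each sample came from 2 plates of 15 cm, and the table holds ribosome-protected fragments of 27 to 29 nt. Minocycline-treated cells and matched RNA-seq are not analysed here, so levels could be set against each other only across genes and across the 2 vehicle libraries. The labels do not say that the libraries came from independent cultures, so an SD over them may be partly technical, and a replicate cannot be told apart from its batch.

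The proteins of the mitochondrial genome are made inside the organelle by mitochondrial ribosomes and join nuclear-encoded subunits in the inner membrane. Complex III passes electrons from ubiquinol to cytochrome c, complex IV passes them on to oxygen, and ATP synthase uses the resulting proton gradient to make ATP. Mitochondrial mRNAs have almost no untranslated sequence, and MT-ATP8 and MT-ATP6 share an mRNA on which their reading frames overlap. Cycloheximide, present in the lysis buffer, arrests cytosolic ribosomes and not mitochondrial ones. Mitochondrial ribosomes also protect fragments whose lengths are not distributed like those of cytosolic ribosomes, and fragments outside 27 to 29 nt are not analysed here.

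Replicate 1 held 865838 counts and replicate 2 held 611266, and the 37 mitochondrial rows took 19.8% and 26.0% of them. Most of that share lay in 2 rows that are no members, which took 17.6% of replicate 1 and 23.2% of replicate 2. The 6 mRNAs together had 4852 counts in replicate 1, or 0.560% of the library (95% exact Clopper-Pearson interval 0.545 to 0.576), and 4180 counts in replicate 2, or 0.684% (0.663 to 0.705). Their mean share was 0.622% ± 0.0873 (SD, n = 2). Ribosomal RNA was not depleted. The labels name no molecular identifiers, so copies made by amplification may be counted more than once, and all intervals here cover counting error only. The cell line was not checked against marker genes, because the reference table used here pairs none of the Ensembl IDs with symbols.

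All members but MT-ATP8 were among the 328 most abundant IDs of both libraries. MT-CYB (ENSG00000198727), the cytochrome b that carries the heme b groups of complex III, had the most counts, 1323 in replicate 1 and 1222.5 in replicate 2. It ranked 54 and 28 among all IDs. MT-CO1 (ENSG00000198804), the catalytic subunit of complex IV where oxygen is reduced, had 1202 and 1082.5 counts and ranked 66 and 38. MT-CO2 (ENSG00000198712), which takes electrons from cytochrome c, had 985 and 849 counts and ranked 87 and 54. MT-CO3 (ENSG00000198938), a core subunit of complex IV without a redox centre, had 965 and 797 counts and ranked 89 and 64. These 4 mRNAs of complexes III and IV thus lay within 2-fold of each other in raw counts in both libraries.

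Both members of complex V had fewer counts. MT-ATP6 (ENSG00000198899), the subunit that forms the proton path of ATP synthase, had 358.5 counts in replicate 1 and 226 in replicate 2. It ranked 317 and 328. MT-ATP8 (ENSG00000228253), a small membrane subunit of the same enzyme, had 18.5 counts in replicate 1 and 3 in replicate 2. It ranked 5377 and 9613, far below the other members, and its replicate 2 value stood at 3 counts, the upper limit that a count of 0 would allow.

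**Figure D1:**
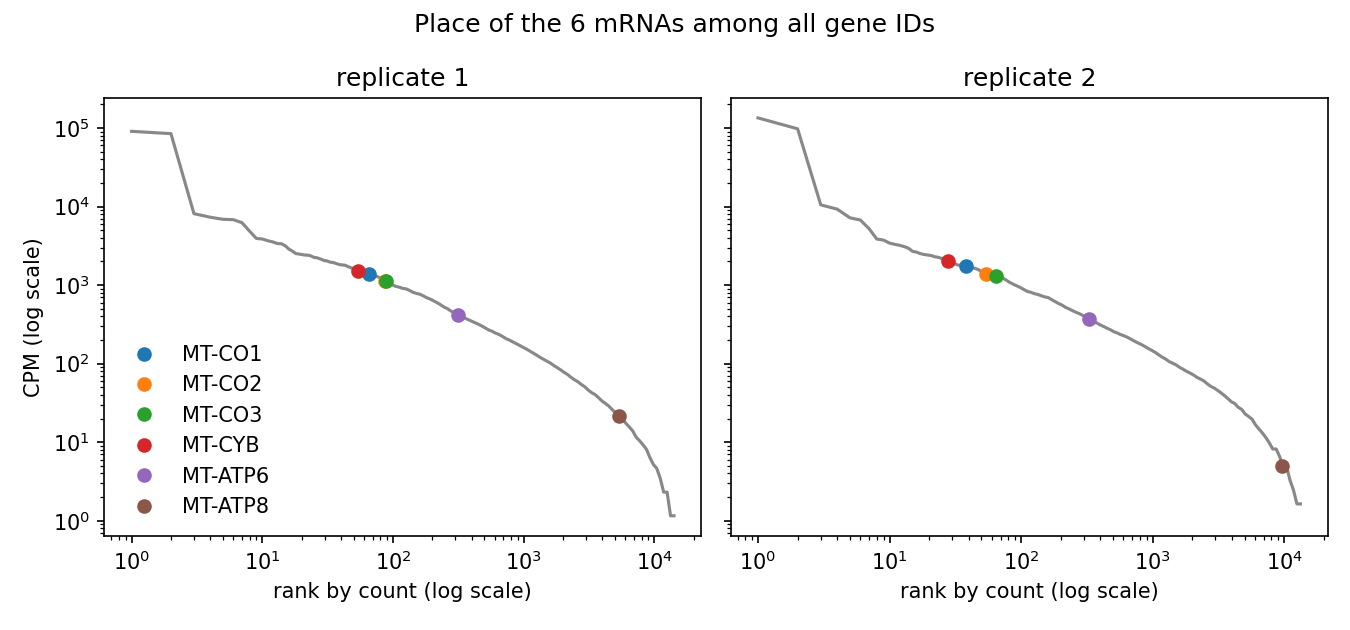
CPM, counts per 1000000 counts of the library (vertical, log scale), against rank by count (horizontal, log scale) for replicate 1 on the left and replicate 2 on the right. The grey line is all gene IDs and the points are the 6 mRNAs. The 4 mRNAs of complexes III and IV lie between ranks 54 and 89 in replicate 1, where MT-CO2 and MT-CO3 nearly coincide, and between 28 and 64 in replicate 2, with MT-ATP6 and MT-ATP8 far to the right.

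Counts of different genes were compared per length. Lengths came from the RefSeq genes of GRCh38.p14, in which all 6 were found by a listed synonym, while the table was made on hg19. That the lengths are the same in the authors' annotation was not checked. Levels are CPM per 1000 nt of gene, without further scaling. These bulk levels count fragments on all copies of an mRNA, so more mRNA and more ribosomes per mRNA cannot be told apart, nor can more cells and more RNA per cell.

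Per length, the order changed at its top, and MT-CO2 led in both libraries. MT-CO2 (684 nt) had 1663 CPM per 1000 nt in replicate 1 and 2031 in replicate 2, a mean of 1847 ± 260 (SD, n = 2). MT-CYB (1141 nt) had 1339 and 1753 CPM per 1000 nt, a mean of 1546 ± 292. MT-CO3 (784 nt) had 1422 and 1663 CPM per 1000 nt, a mean of 1542 ± 171. All 3 levels were higher in replicate 2, which widens these SDs, so the order was read within each library. MT-CO2 stood above MT-CYB in both, with exact intervals that did not overlap. MT-CYB and MT-CO3 were not set apart: MT-CYB had 0.942 times the level of MT-CO3 in replicate 1 (95% exact binomial interval 0.866 to 1.02) and 1.05 times in replicate 2 (0.963 to 1.15).

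MT-CO1, with the longest gene of the 6 (1542 nt), took the fourth place per length. It had 900 CPM per 1000 nt in replicate 1 and 1148 in replicate 2, a mean of 1024 ± 175 (SD, n = 2). The complex IV enzyme holds a single copy of each of these subunits, and the fragment levels of their mRNAs differed. MT-CO2 had 1.85 times the level of MT-CO1 in replicate 1 (1.70 to 2.01) and 1.77 times in replicate 2 (1.61 to 1.94). MT-CO3 had 1.58 times the level of MT-CO1 in replicate 1 (1.45 to 1.72) and 1.45 times in replicate 2 (1.32 to 1.59). MT-CO2 exceeded MT-CO3 by less, 1.17 times in replicate 1 (1.07 to 1.28) and 1.22 times in replicate 2 (1.11 to 1.35). These ratios compare levels within a library, are free of scaling between libraries, and kept their direction in both.

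MT-ATP6 (681 nt) had 608 CPM per 1000 nt in replicate 1 and 543 in replicate 2, a mean of 575 ± 46.0 (SD, n = 2). Although MT-ATP6 is nearly as long as MT-CO2, the level of MT-CO2 was 2.74 times as high in replicate 1 (2.42 to 3.10) and 3.74 times in replicate 2 (3.23 to 4.35). The nearest member above MT-ATP6 was MT-CO1, with 1.48 times its level in replicate 1 (1.32 to 1.67) and 2.11 times in replicate 2 (1.83 to 2.45). MT-ATP6 thus stood below each member of complexes III and IV in both libraries, by a margin that differed between them.

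MT-ATP8 (207 nt) had the lowest level, 103 CPM per 1000 nt in replicate 1 (59.5 to 159) and 23.7 in replicate 2 (4.89 to 69.3), so the value of a single library moves its level more than 1.5 times. MT-ATP8 lies on the same mRNA as MT-ATP6. On rounded counts, MT-ATP6 exceeded it 6.05 times in replicate 1 (3.77 to 10.3) and 22.9 times in replicate 2 (7.74 to 112). At the level of MT-ATP6, the length of MT-ATP8 would have held 109 counts in replicate 1 and 68.7 in replicate 2, in place of 18.5 and 3. MT-ATP8 held 4.91% of the summed counts of the 2 genes in replicate 1 and 1.31% in replicate 2.

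The 2 genes overlap by 46 nt in RefSeq, more than a fragment of 29 nt, and the rule by which the authors assigned fragments there is not given in the sources used here. With the overlap taken off the length of both genes and the counts kept, the mean level was 617 CPM per 1000 nt for MT-ATP6 and 81.6 for MT-ATP8. The order of the 6 levels stayed as it was, but this does not test how fragments of the overlap were assigned. Summed over their joint 842 nt, the pair had 517 CPM per 1000 nt in replicate 1 and 445 in replicate 2, still below MT-CO1. Values ending in 0.5 occurred for 2 members in each library, MT-ATP6 and MT-ATP8 in replicate 1, and MT-CO1 and MT-CYB in replicate 2. RefSeq also lists nuclear pseudogenes named after each member, 58 for MT-CO1, 34 for MT-CO2, 47 for MT-CO3, 45 for MT-CYB, 31 for MT-ATP6 and 4 for MT-ATP8. Counts shared with such copies are uncertain, and their part in these levels was not tested.

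**Figure D2:**
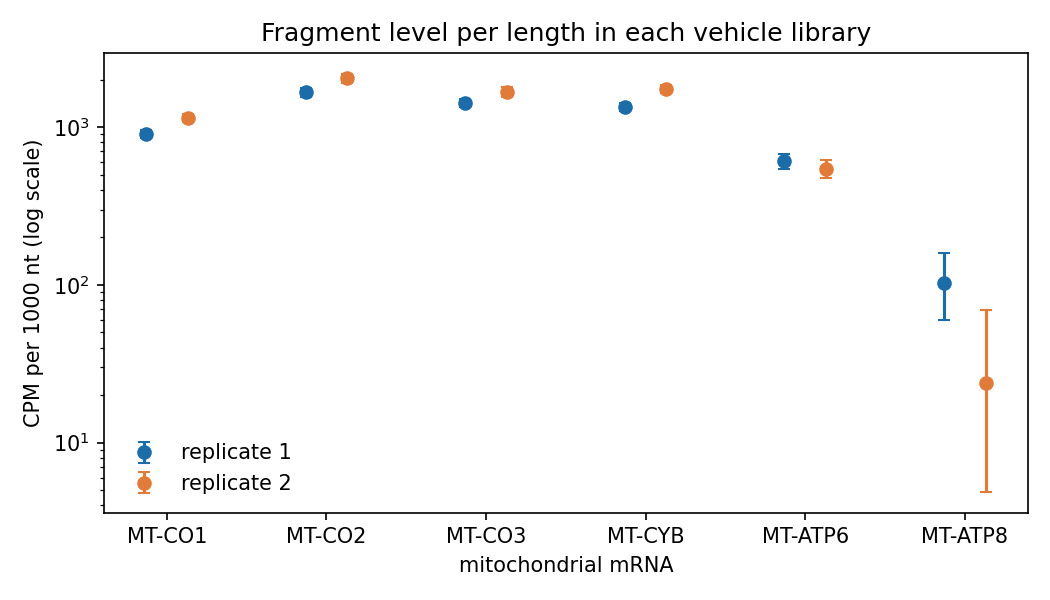
Fragment level of each mRNA in CPM per 1000 nt (vertical, log scale) in replicate 1 (blue) and replicate 2 (orange). Bars are 95% exact Clopper-Pearson intervals of the count. MT-CO2 is highest in both libraries, MT-ATP6 lies below the 4 mRNAs of complexes III and IV, and MT-ATP8 lies lowest, at 103 and 23.7.

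The division of counts among the 6 mRNAs does not depend on scaling between the libraries. MT-CYB took 27.3% of them in replicate 1 (26.0 to 28.5) and 29.2% in replicate 2 (27.9 to 30.6). The 3 mRNAs of complex IV together took 65.0% in replicate 1 (63.6 to 66.3) and 65.3% in replicate 2 (63.8 to 66.7), a mean of 65.1% ± 0.221 (SD, n = 2). MT-CO2 alone took 20.3% in both. These shares differed between the libraries by no more than 2.0 percentage points.

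Complex V took 7.77% in replicate 1 (7.03 to 8.56) and 5.48% in replicate 2 (4.81 to 6.21), with intervals that did not overlap. Relative to the 4 members of complexes III and IV, the odds of a fragment falling on MT-ATP6 were 1.40 times as high in replicate 1 as in replicate 2 (conditional exact interval 1.17 to 1.67). Relative to MT-ATP6, those of MT-ATP8 were 3.78 times as high (1.09 to 20.3), an estimate that rests on 3 counts in replicate 2. The chi-square statistic for a common division was 5.42 times its 5 degrees of freedom over the 6 mRNAs and 1.24 times its 3 degrees of freedom over the 4 mRNAs of complexes III and IV. Over the whole table it was 12.7 times its degrees of freedom, taken over the 2241 IDs whose counts summed to 100 or more. For a given difference the statistic grows with the counts, and the 2241 IDs include the 2 highest rows. These values are therefore no like measure of agreement between the libraries.

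**Figure D3:**
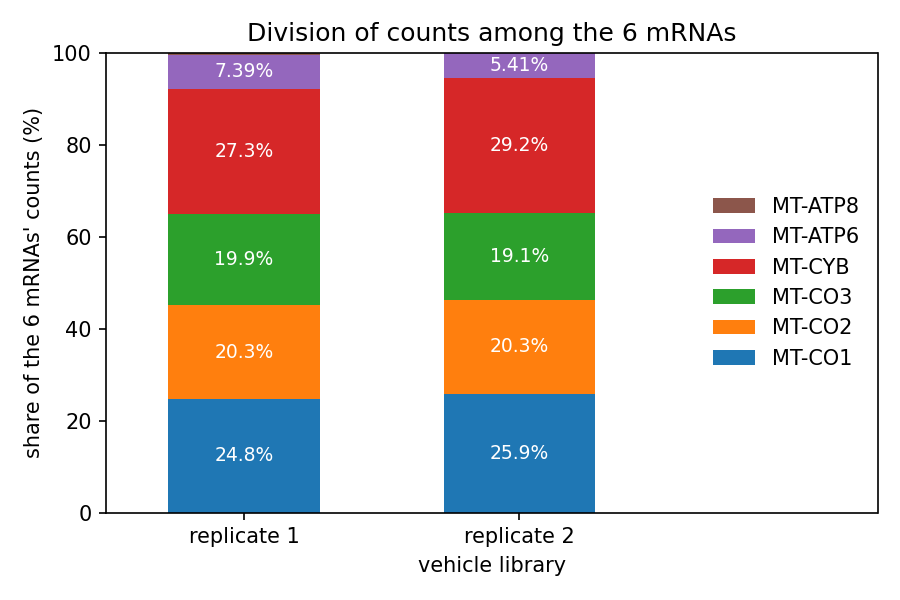
Share of the 6 mRNAs' counts (vertical, percent) taken by each mRNA in replicate 1 (left) and replicate 2 (right). The 4 lower segments are alike between the libraries, MT-ATP6 takes 7.39% and 5.41%, and MT-ATP8, the strip at the top, takes 0.381% and 0.0718%.

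The libraries were then compared gene by gene as the ratio of replicate 1 over replicate 2 after TMM scaling, which sets the libraries on a common scale through genes that differ little. The 4 mRNAs of complexes III and IV were lower in replicate 1, by similar amounts. The log2 ratio was -0.50 for MT-CYB (95% exact binomial interval -0.61 to -0.38), -0.46 for MT-CO1 (-0.58 to -0.34), -0.40 for MT-CO2 (-0.53 to -0.26) and -0.34 for MT-CO3 (-0.47 to -0.20). MT-CYB was thus 1.41 times and MT-CO3 1.26 times as high in replicate 2. MT-ATP6 had a log2 ratio of 0.05 (-0.19 to 0.30), an interval that holds both directions.

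Intervals lay wholly on the side of replicate 2 for 4 of the 5 members that reached 100 summed counts, against 15.6% of all 2241 such IDs. They lay on the side of replicate 1 for 0 of the 5, against 22.3% of IDs. By library size in place of TMM the counts of members were again 4 and 0, against 12.0% of IDs on the side of replicate 2 and 31.4% on that of replicate 1. Counting intervals narrow as counts rise, and the 4 members had more counts than most of the 2241 IDs. A small difference is thus called more easily for them, and the shares over all IDs are no like base rate. No member's interval lay wholly beyond 2-fold, 0 of 5, against 0.803% of IDs in either direction. MT-ATP8 was below the minimum, and its log2 ratio of 1.97 (0.20 to 4.38) rests on 18.5 and 3 counts, rounded first. Without rounding the ratio was 2.01. The 4 members share a chromosome, are cut from common precursors and come from the same 2 libraries, so they are not independent cases.

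The same direction held for most other rows of the mitochondrial chromosome. The median log2 ratio was -0.40 over the 5 members (range -0.50 to 0.05) and -0.43 over 15 other mitochondrial rows with at least 100 summed counts, leaving out the 2 highest rows (range -0.79 to 0.06). Of those 15 rows, 14 were higher in replicate 2. The median over all 2241 IDs was 0.07. Scaling by library size moved that median to 0.18 and the median of the 5 members to -0.29, and the 4 mRNAs of complexes III and IV stayed on the side of replicate 2. No difference between the members and the other mitochondrial rows was tested, and why the mitochondrial rows took more of replicate 2 was not tested.

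**Figure D4:**
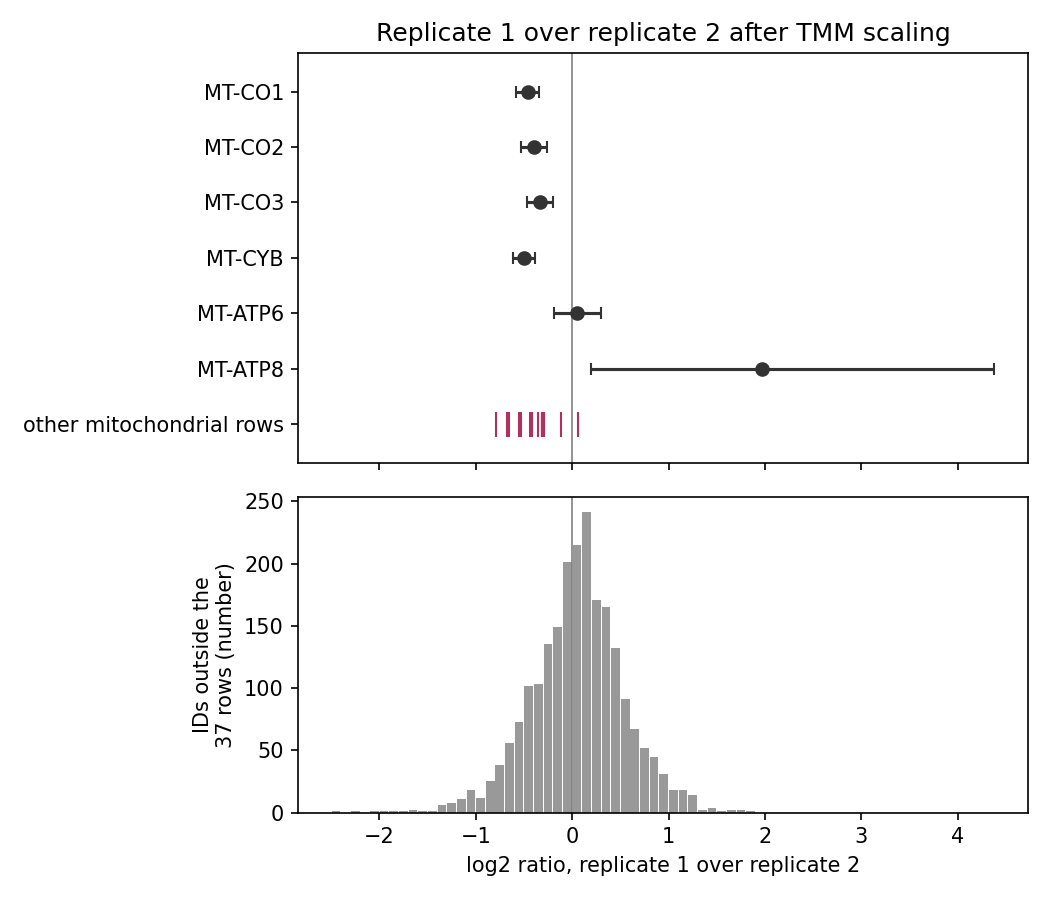
Upper panel, log2 ratio of replicate 1 over replicate 2 after TMM scaling for each mRNA, with 95% exact binomial intervals, and red ticks for the 15 other mitochondrial rows with at least 100 summed counts and the 2 highest rows. Lower panel, number of IDs outside the 37 rows per bin of the same ratio. The 4 mRNAs of complexes III and IV lie between -0.50 and -0.34, among the red ticks and left of the centre of the lower panel, while MT-ATP6 lies at 0.05.

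Among the 37 mitochondrial rows, MT-CYB had the place 7 by count in replicate 1 and 6 in replicate 2, and MT-CO1 the place 8 in both. MT-CO2 had the places 10 and 9, MT-CO3 the places 11 and 12, MT-ATP6 the places 14 and 16, and MT-ATP8 the place 25 in both. The 6 mRNAs made up 2.84% of the counts of the 37 rows in replicate 1 (2.76 to 2.92) and 2.63% in replicate 2 (2.55 to 2.71). Without the 2 highest rows they made up 25.7% in replicate 1 (25.1 to 26.3) and 24.6% in replicate 2 (23.9 to 25.2). RefSeq lists 13 protein-coding genes, 22 tRNAs and 2 rRNAs on this chromosome, as many genes as there are rows. The 6 members stood in RefSeq order, but the other 31 rows were not assigned to single genes by position. The places and shares above therefore do not separate mRNA, tRNA and rRNA rows. Of the other 31 rows, 8 had a count of 0 in both libraries, and these were not separated by gene type either. Every member had at least 3 counts, but the 3 counts of MT-ATP8 in replicate 2 are the upper limit that a count of 0 would allow.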

How the data were processed

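The authors deposited estimated counts of ribosome-protected fragments per Ensembl gene ID, unscaled, with 1 column per library, per the series' design text. Non-whole values (tolerance 0.001) made up 15.2% of those above 0 in replicate 1 and 13.9% in replicate 2. Per the submitters' processing notes, fragments were placed on hg19. The sources used here give no aligner, counter, annotation, strand setting or rule for shared fragments. The members and tests were chosen with earlier results of these data known. The rule for named genes admitted the 6 members, and others only through a table pairing IDs with names, which the reference did not hold, so lists of nuclear-encoded subunits and cell markers could not be applied. Protein lengths, foreseen as the length, were replaced by RefSeq gene lengths.

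Shares and CPM used the values as deposited. Ratios, intervals and chi-square statistics used values rounded to whole numbers. TMM factors were computed with edgeR 4.0.16 in R 4.3.3 on IDs whose counts summed to 20 or more, and single IDs were compared from a sum of 100. Intervals are exact at 95%. With 1 group there was no contrast and no p-value. On simulated counts for the ratio of replicate 1 over replicate 2, with counting error only and 1753 IDs tested, the 2-fold rule recovered 100% of 4-fold and 100% of 8-fold changes, with 0 false calls. The changed IDs all lay well above the minimum sum of 100 and were all raised in replicate 1. The simulation therefore does not show how the rule does near that minimum or with differences beyond counting error. Python 3.11.15, scipy 1.17.1 and DESeq2 1.42.0 were also used.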

Additional observations from a re-analysis of the deposited data

How the results depend on the processing

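No paired analysis was possible because the libraries analysed here form 1 group. The share of all counts held by the 6 mRNAs was 0.785% without the 2 highest IDs in the total and 0.805% without the other mitochondrial rows, against 0.622%, as follows from the smaller totals; either library alone gave 0.560% to 0.684%. The share among the 37 rows, 2.73%, became 25.1% without the 2 highest rows, and was 2.63% to 2.84% in either library alone. The 7 IDs beyond 2-fold towards replicate 1 and 11 towards replicate 2 became 46 and 49 at 1.5-fold, 29 and 56 with at least 20 summed counts, 11 and 7 by library size, and 4 and 7 with 99% intervals. Of the tested members, 4 lay on the side of replicate 2 and 0 on that of replicate 1 also by library size, with DESeq2 size factors, with library size without the last 37 rows and with 99% intervals, which were added after the data were seen. MT-CO3 and MT-CYB changed places in the order of levels in replicate 1 alone and with 9 codons taken off each length. Of 43 recomputed values of single mRNAs, 39 stayed within their error, the SD over the 2 libraries for shares and levels and the exact interval for ratios. The other 4 are shares that rise when MT-ATP6 and MT-ATP8 are left out of the total. Leaving out a library is not counted, since with 2 libraries it cannot move a mean by more than its SD. The 99% intervals are not counted either, since they leave the ratio itself unchanged. Some settings, such as rounding, change a value very little. DESeq2 size factors and library size without the last 37 rows scaled the libraries by log2 0.616 and 0.620, against 0.611 for TMM. For such settings, staying within the error was nearly fixed in advance. It was also easy for the level of MT-ATP8, with an SD of 56.2 on a mean of 63.5. By library size the log2 ratio of MT-CYB was -0.388, just inside its TMM interval of -0.610 to -0.384. Depth limits MT-ATP8: its level was 23.7 or 103 CPM per 1000 nt in either library alone, and the 99% interval of its log2 ratio, -0.22 to 5.26, holds both directions.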
